A study of Mus musculus with 32 samples.

Results

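The 10 genes described here encode the enzymes, and 1 partner protein, that turn arachidonic acid into prostaglandins, thromboxane and leukotrienes: Pla2g4a, Ptgs1, Ptgs2, Ptges, Tbxas1, Hpgds, Alox5, Alox5ap, Lta4h and Ltc4s. They were taken by name from 25067 genes, each represented by its transcript with the highest mean count. In 1 or more groups, 9 of the 10 genes exceeded a mean of 1 RPKM (a level scaled to library size and transcript length) and were tested among 11186 genes. Alox5 did not reach this level and was not tested.

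Eicosanoids are short-lived lipid signals that act close to the cell that makes them. Cytosolic phospholipase A2 frees arachidonic acid from membranes, after which the cyclooxygenases turn it into prostaglandin H2 and terminal synthases shape this into prostaglandin E2, prostaglandin D2 or thromboxane. Along the other branch, 5-lipoxygenase and its activating protein make leukotriene A4, which Lta4h and Ltc4s convert into leukotrienes B4 and C4. In macrophages, bacterial lipopolysaccharide (LPS) is known for inducing cyclooxygenase-2 and prostaglandin E2 release, which in turn shapes fever, pain and cytokine production.

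RNA-seq was performed on bone marrow-derived macrophages (BMDMs) of male C57Bl6/J mice aged 6 to 12 weeks, cultured in L929-conditioned medium. BMDM-WT came from wild-type littermates. BMDM-Nur77-KO came from whole-body knockouts, obtained by crossing mice with loxP-flanked Nr4a1, the gene of nuclear receptor Nur77, to mice with Cre recombinase under the CMV promoter. The methods describe knockouts from which Cre was bred out, whereas the labels give their genotype as cre. Both genotypes were left unstimulated (0 h) or received 100 ng/ml LPS for 1, 5 or 18 h, with 4 replicates in each of the 8 groups and 32 libraries in all. Cells were seeded in 4 replicates and the number of animals behind them is not given, so p-values measure only the spread between these samples, which may be technical.

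The test throughout was the quasi-likelihood test of edgeR, with p-values adjusted by Benjamini-Hochberg over the 11186 genes and written as edgeR adjusted p, and log2 differences are given ± SE. Library totals were 8742362 to 15780926 counts. Levels are given in CPM (counts scaled to library size with TMM), and values per transcript length in RPKM. Nr4a1 ranged from 15.5 to 25.7 CPM in BMDM-WT and from 4.45 to 7.01 CPM in BMDM-Nur77-KO at 0 h. It reached 359 to 484 CPM in BMDM-WT and 147 to 243 CPM in BMDM-Nur77-KO at 1 h. Nr4a1 was lower in the knockout by -1.90 ± 0.19 and -1.20 ± 0.15 on the log2 scale (edgeR adjusted p = 1.6e-08 and 1.9e-06). The groups did not overlap at either time, and counts per exon, which would show the deleted part directly, were not used here. Replicate 1 of BMDM-Nur77-KO at 5 h stood apart, with a median correlation of 0.960 with its group, followed by replicate 4 of BMDM-Nur77-KO at 18 h with 0.982, against at least 0.989 for the other libraries. All 7 macrophage markers were abundant, with a summed level of 10802 to 18402 CPM over all libraries. At 18 h this sum was 13754 to 14348 CPM in BMDM-WT and 10802 to 12286 CPM in BMDM-Nur77-KO. Mertk went the other way (317 against 511 CPM on average), Cd68 was nearly the same (1409 against 1354 CPM) and the remaining markers were lower. The 6 dendritic cell markers summed to 5.16 to 7.11 CPM in BMDM-WT and 13.5 to 21.6 CPM in BMDM-Nur77-KO at 18 h, mostly from Clec9a, while Flt3 and Cd209a were at 0 in the latter. The 8 mast cell markers summed to 19.9 to 23.5 CPM and 23.3 to 35.9 CPM in these groups, nearly all from Hdc, with Mcpt4, Tpsb2 and Fcer1a at 0 in every group. The part of these shifts in the results below was not tested, and in bulk RNA fewer cells of a type and less RNA per cell cannot be told apart.

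Before stimulation, the branches of the pathway stood at very different levels per transcript length. In BMDM-WT at 0 h, Alox5ap (125 ± 8.86 RPKM, SD, n = 4), Tbxas1 (94.0 ± 7.91) and Hpgds (68.3 ± 7.04) led, followed by Lta4h (29.7 ± 1.99), Pla2g4a (7.27 ± 0.596), Ptgs1 (5.83 ± 0.523) and Ltc4s (1.77 ± 0.492). Ptges (0.479 ± 0.105 RPKM) and Ptgs2 (0.377 ± 0.153 RPKM) came next and overlapped, and Alox5 was last at 0.0969 RPKM. Every other pair of neighbours in this order had ranges that did not overlap. BMDM-Nur77-KO had the same order at 0 h. Resting cells of both genotypes thus held transcripts for the thromboxane and prostaglandin D2 synthases and for the 5-lipoxygenase partner, but few for the inducible pair of prostaglandin E2 synthesis.

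After LPS the order turned over. Ptgs2 was first at 5 h in both genotypes, with 220 ± 26.3 RPKM in BMDM-WT and 251 ± 57.3 RPKM in BMDM-Nur77-KO (n = 4). At 18 h, BMDM-WT again had Alox5ap on top (64.9 ± 5.79 RPKM), and Tbxas1, Hpgds, Pla2g4a, Ptges, Ptgs2 and Lta4h followed between 38.1 and 18.0 RPKM, each overlapping with the next. In BMDM-Nur77-KO at 18 h, Ptgs2 remained first at 173 ± 38.6 RPKM, Pla2g4a was second at 74.3 ± 4.67 RPKM and Alox5ap next at 34.4 ± 0.960 RPKM, and none of these 3 genes' ranges overlapped.

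**Figure D1:**
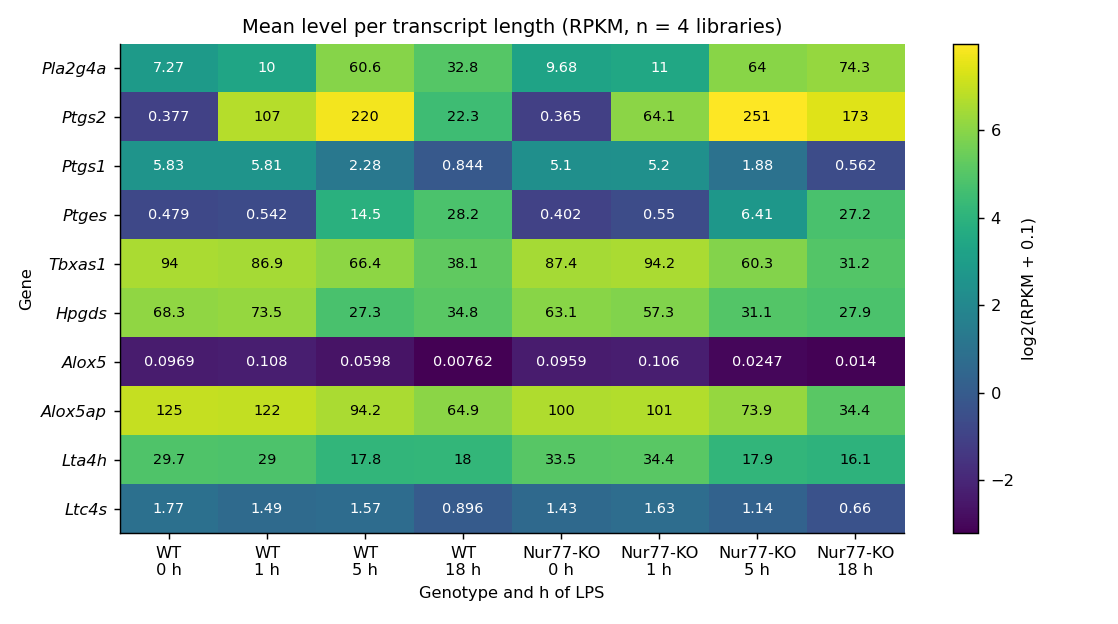
Mean RPKM (numbers in the cells, n = 4 libraries) of the 10 genes in the 8 groups, coloured by log2(RPKM + 0.1), with genes in rows and genotype and hours of LPS in columns. Ptgs2 went from 0.377 RPKM to 220 RPKM between 0 and 5 h in BMDM-WT and stood at 22.3 RPKM in BMDM-WT against 173 RPKM in BMDM-Nur77-KO at 18 h.

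The share of the 9 genes that was called was close to that of all genes tested at 1 h of LPS and stood above it at 5 and 18 h. In BMDM-WT, 2 rose at 1 h (20.3% of all genes tested were called in either direction), 3 rose and 5 fell at 5 h (70.1%), and 3 rose and 6 fell at 18 h (66.4%). In BMDM-Nur77-KO, 1 rose at 1 h (12.3%), 3 rose and 5 fell at 5 h (71.4%), and 3 rose and 6 fell at 18 h (69.5%). The genes that rose at 5 and 18 h were Pla2g4a, Ptgs2 and Ptges in both genotypes. Of these, Ptgs2 (0.377 and 0.365 RPKM) and Ptges (0.479 and 0.402 RPKM) lay below 1 RPKM at 0 h in BMDM-WT and BMDM-Nur77-KO. They entered the test only through LPS groups, so their rise is partly set by the filter. Ptgs1 (0.844 and 0.562 RPKM) and Ltc4s (0.896 and 0.660 RPKM) lay below 1 RPKM at 18 h in BMDM-WT and BMDM-Nur77-KO. These 2 genes entered through earlier groups, so their falls at 18 h are also partly set by the filter. The median log2 change of the 9 genes was -0.42 at 5 h and -0.95 at 18 h in BMDM-WT, beside -0.14 and -0.00 over all genes tested. A gene was called where its edgeR adjusted p was under 0.05.

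Because Ptgs2, Ptges and Pla2g4a rose with LPS, the sequence ahead of each is shown, together with that of Tbxas1, which fell. The genes span chr1:150100031-150108234 (Ptgs2), chr2:30889471-30931020 (Ptges), chr1:149829618-149961290 (Pla2g4a) and chr6:38864159-39084590 (Tbxas1), and Alox5ap spans chr5:149265004-149288153. Windows run from 250 bases before to 30 after the start of the transcript (RefSeq, GRCm38.p6, the patch release of the mm10 build). Those of the first 3 start at the transcript counted here, and that of Tbxas1 6 bases away. They lie at chr1:150099781-150100060 on the plus strand for Ptgs2, chr2:30903268-30903547 on the minus strand for Ptges, chr1:149961261-149961540 on the minus strand for Pla2g4a and chr6:38918736-38919015 on the plus strand for Tbxas1. Capitals mark matches to any motif searched, and each sequence reads 5′ to 3′ on the strand of its gene.
Ptgs2: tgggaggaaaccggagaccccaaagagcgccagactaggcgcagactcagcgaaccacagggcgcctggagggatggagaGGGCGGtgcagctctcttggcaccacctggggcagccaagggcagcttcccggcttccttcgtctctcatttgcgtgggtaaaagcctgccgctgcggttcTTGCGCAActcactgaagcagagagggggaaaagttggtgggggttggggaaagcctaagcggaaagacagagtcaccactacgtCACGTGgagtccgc
Ptges: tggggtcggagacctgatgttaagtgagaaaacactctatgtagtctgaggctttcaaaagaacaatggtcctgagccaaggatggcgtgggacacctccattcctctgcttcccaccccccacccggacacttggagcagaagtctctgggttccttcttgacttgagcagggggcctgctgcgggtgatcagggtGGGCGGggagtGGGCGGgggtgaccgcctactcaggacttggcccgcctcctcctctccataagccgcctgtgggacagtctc
Pla2g4a: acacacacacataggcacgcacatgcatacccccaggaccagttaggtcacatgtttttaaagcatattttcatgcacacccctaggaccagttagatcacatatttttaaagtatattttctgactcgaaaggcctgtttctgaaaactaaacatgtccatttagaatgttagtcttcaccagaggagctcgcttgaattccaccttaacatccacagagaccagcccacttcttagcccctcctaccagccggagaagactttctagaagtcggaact
Tbxas1: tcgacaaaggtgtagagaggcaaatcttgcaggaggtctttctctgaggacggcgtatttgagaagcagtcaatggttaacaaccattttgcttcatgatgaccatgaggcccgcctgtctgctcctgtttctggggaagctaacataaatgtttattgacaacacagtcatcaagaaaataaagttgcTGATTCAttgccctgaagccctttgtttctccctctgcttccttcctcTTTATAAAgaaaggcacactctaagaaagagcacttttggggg

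The motifs were searched on both strands as the letters TGANTCA (AP-1), TGACGTCA (CRE), AAAGGTCA (NBRE, the site of Nur77), TATAAA (the core promoter box), CACGTG (E-box), GGGCGG (GC box) and TTGCGCAA (C/EBP, added after the Ptgs2 window was read), and as the NF-kB consensus. Windows were found for 9 of the 10 genes, and not for Alox5ap. The Ptgs2 window held a GC box 170 bases before the start, the C/EBP letters 69 bases before it and an E-box from base 17 after it. GC boxes stood 53 and 42 bases before the start of Ptges and 35 bases before that of Alox5. Tbxas1 had the AP-1 letters 61 bases before its start and TATAAA on both strands, which overlap each other. The window of Pla2g4a at the start of the counted transcript had no match, as had those of Ptgs1, Lta4h, Ltc4s and Hpgds, while a second Pla2g4a start 38851 bases downstream had TATAAA. Of 32817 promoter windows of the same length, 7.47% held the AP-1 letters, 1.74% CRE, 1.45% NBRE, 4.22% NF-kB, 13.1% TATAAA, 6.79% the E-box, 34.7% the GC box and 0.180% the C/EBP letters. CRE, NBRE and NF-kB matched in 0 of the 9 genes with a window, which says only that these letters are not in these stretches.

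Pla2g4a encodes cytosolic phospholipase A2, which cuts arachidonic acid from phospholipids and so feeds both branches. Its levels in BMDM-WT replicates 1 to 4 were 18.3, 22.0, 21.8 and 20.9 CPM at 0 h, and 27.5, 28.0, 27.8 and 27.2 CPM in BMDM-Nur77-KO. At 5 h they were 171, 171, 170 and 180 CPM in BMDM-WT and 202, 188, 166 and 175 CPM in BMDM-Nur77-KO. The unstimulated groups did not overlap and the groups at 5 h did. At 18 h the levels were 93.4, 91.0, 107 and 83.3 CPM in BMDM-WT and 221, 204, 198 and 226 CPM in BMDM-Nur77-KO, with every knockout library above every wild-type library. Pla2g4a was higher in BMDM-Nur77-KO by 0.41 ± 0.09 on the log2 scale at 0 h (edgeR adjusted p = 0.0026) and by 1.18 ± 0.09, or 2.26-fold, at 18 h (edgeR adjusted p = 8.5e-12). At 1 and 5 h the differences were 0.13 ± 0.09 and 0.08 ± 0.08 (edgeR adjusted p = 0.54 and 0.51). It rose with LPS in BMDM-WT by 0.46 ± 0.09, 3.06 ± 0.09 and 2.17 ± 0.09 at 1, 5 and 18 h (edgeR adjusted p = 0.00029, 8e-23 and 3.7e-19). In BMDM-Nur77-KO the rise was 2.72 ± 0.09 at 5 h and 2.94 ± 0.09 at 18 h. The response at 18 h relative to 0 h exceeded that of BMDM-WT by 0.77 ± 0.13 (edgeR adjusted p = 7.5e-05).

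Ptgs2 encodes cyclooxygenase-2, the inducible enzyme that commits arachidonic acid to prostaglandins. At 0 h it was at 1.83, 2.39, 0.757 and 1.74 CPM in BMDM-WT and at 1.64, 1.90, 1.76 and 1.19 CPM in BMDM-Nur77-KO, and the groups overlapped. At 1 h the levels were 447, 495, 392 and 565 CPM in BMDM-WT against 292, 246, 302 and 302 CPM in BMDM-Nur77-KO, with all knockout libraries below all wild-type libraries. At 5 h they were 939, 846, 1005 and 1125 CPM in BMDM-WT and 1467, 1148, 930 and 924 CPM in BMDM-Nur77-KO. The groups overlapped at 5 h, and the highest value belonged to the knockout library that stood apart. At 18 h the order had turned, with 81.6, 92.5, 130 and 94.1 CPM in BMDM-WT and 658, 613, 812 and 993 CPM in BMDM-Nur77-KO, so that the lowest knockout library was far above the highest wild-type library.

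The Ptgs2 genotype difference thus changed sign over time. It was -0.73 ± 0.17 on the log2 scale at 1 h (edgeR adjusted p = 0.005), 0.19 ± 0.17 at 5 h (edgeR adjusted p = 0.4) and 2.95 ± 0.18, or 7.73-fold higher in BMDM-Nur77-KO, at 18 h (edgeR adjusted p = 1.8e-13). Relative to 0 h, the 1 h response differed between genotypes by -0.65 ± 0.36 without passing the test (edgeR adjusted p = 0.48), while at 18 h the knockout response was the larger one by 3.03 ± 0.36 (edgeR adjusted p = 9.3e-07). The log2 rise over 0 h in BMDM-WT was 8.09 ± 0.25, 9.13 ± 0.26 and 5.84 ± 0.24 at 1, 5 and 18 h, and in BMDM-Nur77-KO 7.44 ± 0.25, 9.40 ± 0.26 and 8.87 ± 0.26.

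The levels at 5 and 18 h were then set side by side. The mean of Ptgs2 at 18 h was 10.2% of the 5 h mean in BMDM-WT (8.33% to 13.2% over the 4 libraries at 18 h) and 68.9% in BMDM-Nur77-KO (54.9% to 88.9%). For Pla2g4a these shares were 54.1% and 116%. Between 5 and 18 h, 1 of the 9 genes rose and 6 fell in BMDM-WT (69.4% of all genes tested were called), and 2 rose and 4 fell in BMDM-Nur77-KO (69.3%). Ptgs2 fell in both, with log2 changes of -3.30 ± 0.18 in BMDM-WT and -0.54 ± 0.17 in BMDM-Nur77-KO (edgeR adjusted p = 4.9e-16 and 0.0055). With the 5 h knockout replicate 1 left out, the latter was -0.38 (edgeR adjusted p = 0.033), and the knockout libraries at 5 and 18 h overlapped.

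The change from 5 to 18 h was then compared between genotypes, a contrast chosen after these values were seen, in which 13.6% of all genes tested were called. It was larger in BMDM-Nur77-KO for Ptgs2 by 2.76 ± 0.24, for Ptges by 1.13 ± 0.14 and for Pla2g4a by 1.10 ± 0.12, and lower for Alox5ap by -0.57 ± 0.13 (edgeR adjusted p = 2.2e-09, 9e-07, 1.1e-07 and 0.0028). The other 5 genes did not pass this test. The rise of Pla2g4a from 5 to 18 h in BMDM-Nur77-KO was small (0.22 ± 0.08, edgeR adjusted p = 0.025), its groups overlapped, and it did not pass on leaving out replicate 1 or 4 at 18 h or replicate 3 or 4 at 5 h (edgeR adjusted p = 0.062, 0.069, 0.09 and 0.061). Nor did this rise pass with DESeq2's Wald test (adjusted p = 0.073). The same held with DESeq2's size factors or only the groups compared (edgeR adjusted p = 0.094 and 0.093).

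**Figure D2:**
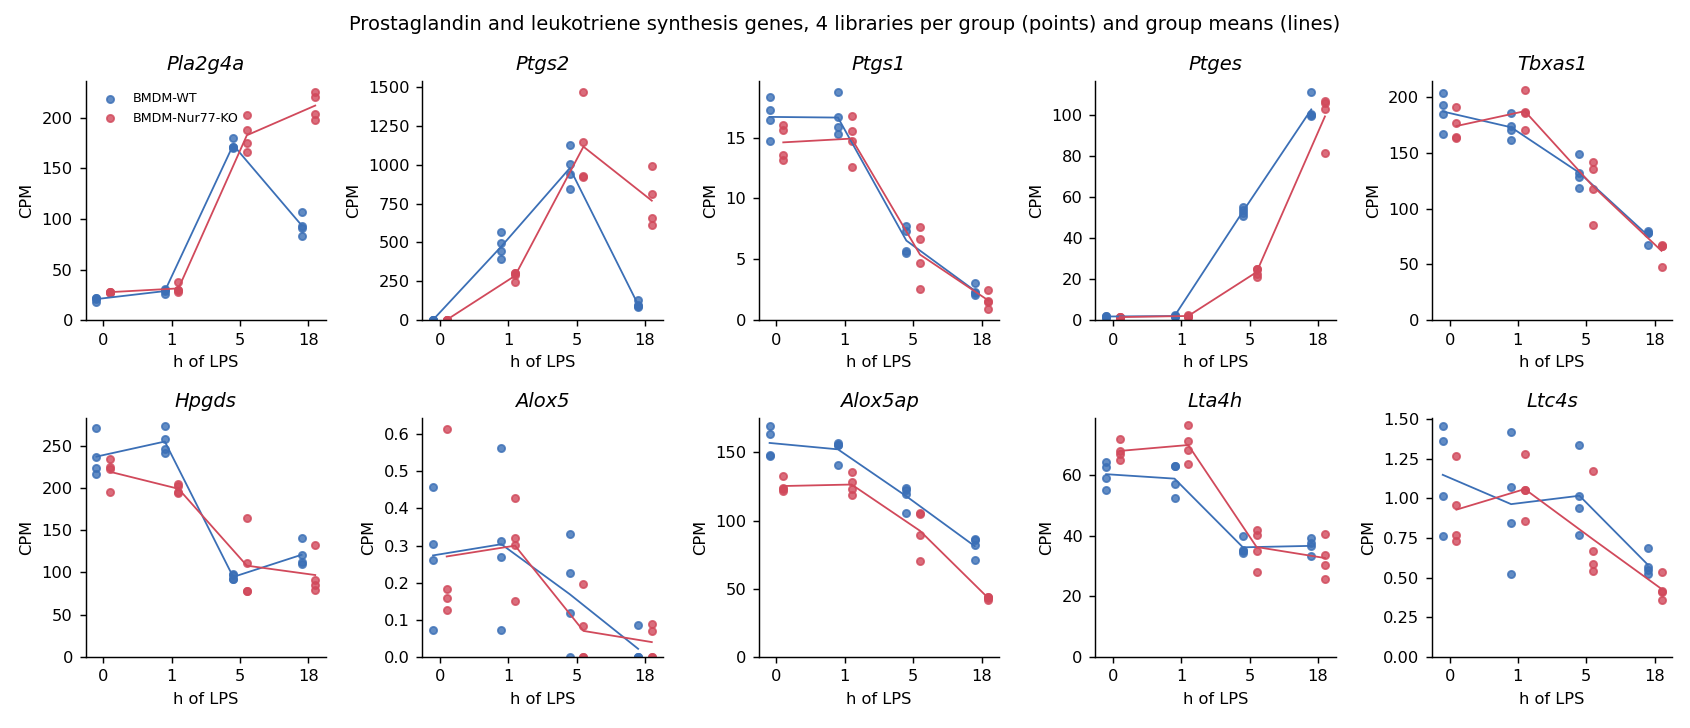
CPM of each gene against hours of LPS, with 1 point per library (4 per group) and lines through the group means, BMDM-WT in blue and BMDM-Nur77-KO in red, each panel on its own linear axis from 0. Ptgs2 and Pla2g4a separate at 18 h (99.4 against 769 CPM and 93.8 against 212 CPM on average), Ptges at 5 h (53.0 against 23.4 CPM) and Alox5ap most at 18 h (81.3 against 43.0 CPM).

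Pla2g4a and Ptgs2 are neighbours on chromosome 1, on opposite strands and running apart. Between their transcript starts lie 138740 bases and 2 RefSeq genes, Gm19136 and Ptgs2os. On the other side of Ptgs2 lies Ptgs2os2 (chr1:150159043-150164948), a non-coding RNA also known as lincRNA-Cox2, named here after its values were seen. It was at 0 to 0.104 CPM in BMDM-WT at 0 h and at 3.47, 3.70, 5.37 and 2.93 CPM at 18 h, against 8.56, 8.16, 12.8 and 15.4 CPM in BMDM-Nur77-KO at 18 h. All knockout libraries were above all wild-type libraries at that time, by 1.54 ± 0.22 on the log2 scale (edgeR adjusted p = 3e-06), while at 5 h the groups overlapped (0.42 ± 0.20, edgeR adjusted p = 0.12).

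Ptgs1 encodes cyclooxygenase-1, usually regarded as the constitutive form. It was at 17.2, 14.8, 18.3 and 16.5 CPM in BMDM-WT at 0 h, at 5.65, 5.47, 7.72 and 7.29 CPM at 5 h and at 3.01, 2.09, 2.34 and 2.24 CPM at 18 h. These 3 groups did not overlap. The corresponding levels in BMDM-Nur77-KO were 16.0, 13.6, 13.2 and 15.6 CPM, then 2.60, 4.68, 7.62 and 6.64 CPM, then 0.892, 2.48, 1.60 and 1.46 CPM. Ptgs1 fell at 18 h, with log2 changes of -2.78 ± 0.21 in BMDM-WT and -3.17 ± 0.22 in BMDM-Nur77-KO (edgeR adjusted p = 7e-13 and 9.9e-14). Its means at 18 h lay below 1 RPKM in both genotypes, so this fall is partly set by the filter. The genotypes overlapped at every time and differed by -0.59 ± 0.28 at 18 h (edgeR adjusted p = 0.14), which passed the test without replicate 2 of BMDM-Nur77-KO (-0.85, edgeR adjusted p = 0.037).

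Per transcript length, Ptgs2 made up 6.20% ± 2.81 (SD, n = 4) of the RPKM of both cyclooxygenases in BMDM-WT at 0 h and 6.76% ± 1.65 in BMDM-Nur77-KO. At 1 h it was 94.8% ± 0.853 and 92.4% ± 1.46, at 5 h 99.0% ± 0.108 and 99.2% ± 0.450, and at 18 h 96.2% ± 1.15 and 99.7% ± 0.193. At 18 h the highest wild-type share was 97.3% and the lowest knockout share 99.4%. From 1 h on, Ptgs2 made up most of the cyclooxygenase transcripts in both genotypes.

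Ptges encodes microsomal prostaglandin E synthase-1, which works with cyclooxygenase-2 to make prostaglandin E2. It was at 1.21 to 2.06 CPM in BMDM-WT and 1.18 to 1.67 CPM in BMDM-Nur77-KO at 0 h. At 1 h it ranged over 1.69 to 2.50 CPM and 1.52 to 2.56 CPM. At 5 h the levels were 53.7, 55.2, 52.1 and 50.8 CPM in BMDM-WT and 22.3, 21.1, 25.2 and 25.0 CPM in BMDM-Nur77-KO. Every knockout library was below every wild-type library, and replicate 1 of the knockout was no exception. At 18 h the values were 99.6, 99.8, 100 and 111 CPM in BMDM-WT and 106, 107, 103 and 81.6 CPM in BMDM-Nur77-KO, and the groups overlapped.

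Ptges differed between genotypes at 5 h by -1.18 ± 0.10 on the log2 scale, or 2.26-fold lower in BMDM-Nur77-KO (edgeR adjusted p = 1.1e-09), and at 18 h by -0.05 ± 0.10 (edgeR adjusted p = 0.76). Its response at 5 h relative to 0 h was smaller in BMDM-Nur77-KO by -0.92 ± 0.22 (edgeR adjusted p = 0.014, with 3.12% of all genes tested called). Relative to 0 h, it rose by 4.90 ± 0.13 at 5 h and 5.86 ± 0.13 at 18 h in BMDM-WT, and by 3.98 ± 0.14 and 6.07 ± 0.14 in BMDM-Nur77-KO. Between 5 and 18 h the mean went to 194% of its 5 h value in BMDM-WT and to 424% in BMDM-Nur77-KO.

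The balance of Ptges to Ptgs2, as a ratio of RPKM, is given as a description, without a test. At 1 h it was 0.00511 ± 0.000713 (SD, n = 4) in BMDM-WT and 0.00877 ± 0.00292 in BMDM-Nur77-KO, where the knockout was the higher group. It was 0.0670 ± 0.0104 in BMDM-WT and 0.0268 ± 0.00741 in BMDM-Nur77-KO at 5 h, and 1.30 ± 0.246 and 0.166 ± 0.0502 at 18 h. The groups did not overlap at 1, 5 or 18 h, and from 5 h on the knockout was the lower one. The lowest wild-type ratio at 18 h was 0.946 and the highest knockout ratio 0.213. At 0 h the ratios were 1.39 ± 0.405 and 1.15 ± 0.388 and overlapped.

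**Figure D3:**
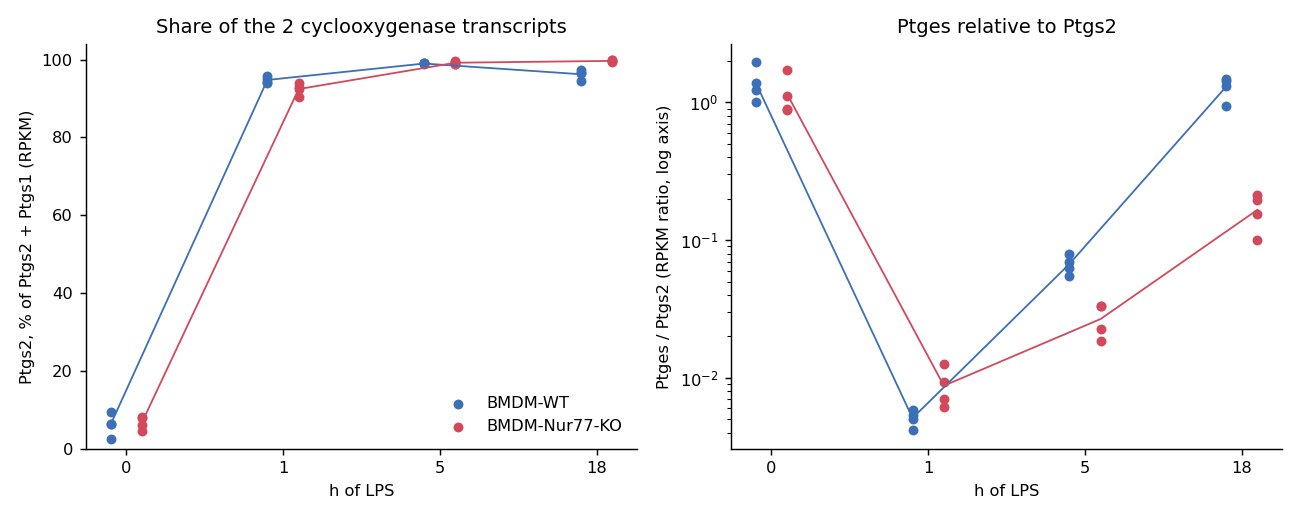
Left, RPKM of Ptgs2 as a percentage of the sum of Ptgs2 and Ptgs1; right, ratio of the RPKM of Ptges to that of Ptgs2 on a log axis, both against hours of LPS with 1 point per library and lines through group means (BMDM-WT blue, BMDM-Nur77-KO red). The Ptgs2 share went from 6.20% to 94.8% in BMDM-WT within 1 h, and the 18 h ratio was 1.30 in BMDM-WT against 0.166 in BMDM-Nur77-KO.

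Tbxas1 and Hpgds, the synthases of thromboxane A2 and prostaglandin D2, were abundant at rest and fell with LPS. The sums of the eosinophil and platelet markers also went down between 0 and 18 h in BMDM-WT. The sum of the mast cell markers went the other way, from a range of 3.41 to 4.36 CPM to one of 19.9 to 23.5 CPM. This came from Hdc (0.0691, then 20.9 CPM on average), while Kit fell from 3.94 to 0.660 CPM. So did the sums of dendritic cell markers (1.22 to 1.51, then 5.16 to 7.11 CPM) and fibroblast markers (0 to 0.363, then 0.602 to 1.55 CPM) rise. The dendritic cell rise came from Xcr1 and Clec9a, while Flt3, Zbtb46 and Siglech went down from very low levels. The fibroblast rise was nearly all from Dcn, with the other 5 markers at or under 3 counts at 18 h. Neutrophil and B cell sums overlapped between these times. The 4 eosinophil markers went from a range of 106 to 128 CPM to one of 6.88 to 10.3 CPM, nearly all from Ccr3 and with Epx at 0 in every group, and the 6 platelet and megakaryocyte markers from 76.2 to 89.5 CPM at 0 h to between 29.9 and 38.8 CPM, nearly all from Pf4. In BMDM-Nur77-KO these sums were 120 to 169 CPM and 47.4 to 54.0 CPM at 0 h, and 5.86 to 6.50 CPM and 25.5 to 32.2 CPM at 18 h. Their part in the decreases was not tested. Tbxas1 was at 185, 167, 204 and 193 CPM in BMDM-WT at 0 h and at 77.7, 79.985, 67.4 and 78.5 CPM at 18 h. In BMDM-Nur77-KO it was at 177, 165, 163 and 191 CPM and at 66.6, 66.6, 67.6 and 47.6 CPM. It fell at 18 h, with log2 changes of -1.30 ± 0.12 in BMDM-WT and -1.49 ± 0.12 in BMDM-Nur77-KO (edgeR adjusted p = 4.5e-11 and 2.1e-12). The genotype difference at 18 h was -0.29 ± 0.12 (edgeR adjusted p = 0.083), or -0.34 without replicate 3 of BMDM-WT (edgeR adjusted p = 0.049). Its RefSeq span shares 12173 bases with Hipk2 on the opposite strand, upstream of the counted transcript, and antisense genes such as Gm42962 overlap the transcript itself. The sources used here do not say whether counting used the strand.

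Hpgds was at 237, 272, 216 and 224 CPM in BMDM-WT at 0 h, at 91.8, 96.8, 92.0 and 98.2 CPM at 5 h and at 121, 112, 141 and 110 CPM at 18 h. In BMDM-Nur77-KO the levels were 235, 222, 225 and 196 CPM, then 165, 111, 77.6 and 78.5 CPM, then 85.6, 78.9, 90.5 and 133 CPM. The 165 CPM came from the 5 h knockout library that stood apart and the 133 CPM from replicate 4 at 18 h, the second of the divergent libraries. Hpgds fell in BMDM-WT, with log2 changes of -1.33 ± 0.16 at 5 h and -0.97 ± 0.16 at 18 h (edgeR adjusted p = 1.6e-08 and 3.4e-06), and in BMDM-Nur77-KO (-1.02 ± 0.16 and -1.18 ± 0.16, edgeR adjusted p = 1.5e-06 and 1.3e-07). At 1 h the genotypes did not overlap, with 242 to 274 CPM in BMDM-WT and 194 to 205 CPM in BMDM-Nur77-KO. That difference passed the test only when the 2 groups were fitted alone (-0.36 ± 0.06, edgeR adjusted p = 0.00044). At 18 h the genotypes differed by -0.32 ± 0.16 (edgeR adjusted p = 0.16) and overlapped. Without replicate 4 of BMDM-Nur77-KO this was -0.51 and passed the test (edgeR adjusted p = 0.019).

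Alox5, which encodes 5-lipoxygenase, the enzyme that opens the leukotriene branch, was barely counted. It had 1 to 8 counts per library at 0 and 1 h, 0 to 3 at 5 h and 0 or 1 at 18 h, in both genotypes. A count of 0 allows up to 3 counts, which is 0.156 to 0.365 CPM at the depth of these libraries and covers counting error only. Alox5 was not tested. In BMDM-Nur77-KO replicates 1 to 4 had 2, 2, 8 and 2 counts at 0 h and 0, 1, 1 and 0 at 18 h. In BMDM-WT they had 6, 5, 4 and 1, then 0, 0, 0 and 1. Most of these counts lie within the 3 that a count of 0 allows, so no fall and no genotype contrast is read from them. The genotypes overlapped at all 4 times.

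Alox5ap encodes the 5-lipoxygenase-activating protein, a membrane protein that hands arachidonic acid to the enzyme. It was at 147, 148, 169 and 164 CPM in BMDM-WT at 0 h and at 122, 123, 124 and 133 CPM in BMDM-Nur77-KO. At 18 h it was at 82.2, 85.7, 70.7 and 86.4 CPM in BMDM-WT and at 43.7, 41.4, 43.0 and 44.1 CPM in BMDM-Nur77-KO. The groups did not overlap at either time, and the knockout values were the lower ones. Between these times, 156, 157, 141 and 156 CPM in BMDM-WT stood against 136, 128, 119 and 123 CPM at 1 h, and 119, 124, 123 and 106 CPM against 70.3, 89.2, 105 and 106 CPM at 5 h, where the groups overlapped.

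Alox5ap was lower in BMDM-Nur77-KO by -0.32 ± 0.09 on the log2 scale at 0 h (edgeR adjusted p = 0.016), by -0.35 ± 0.09 at 5 h (edgeR adjusted p = 0.0072) and by -0.92 ± 0.09, or 1.89-fold, at 18 h (edgeR adjusted p = 7.1e-09). The 1 h difference was -0.27 ± 0.09 (edgeR adjusted p = 0.077), and it was called when the 2 groups were fitted alone (edgeR adjusted p = 0.0058) and by DESeq2's Wald test (adjusted p = 0.028). At 0 h the call was lost without replicate 3 of BMDM-WT or replicate 1 of BMDM-Nur77-KO (edgeR adjusted p = 0.065 and 0.052). At 5 h it was lost when the 2 groups compared were fitted alone (edgeR adjusted p = 0.18). With LPS, Alox5ap fell in both genotypes at 5 h (-0.42 ± 0.09 and -0.44 ± 0.09) and at 18 h (-0.95 ± 0.09 and -1.54 ± 0.09). The 18 h response was more negative in BMDM-Nur77-KO (-0.59 ± 0.13, edgeR adjusted p = 0.0022, with 9.43% of all genes tested called). An annotated antisense gene, Gm19719, overlaps Alox5ap, and without strand-aware counts their reads cannot be told apart.

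Lta4h, the hydrolase that makes leukotriene B4, was at 55.1 to 64.2 CPM in BMDM-WT and 65.0 to 71.8 CPM in BMDM-Nur77-KO at 0 h, then at 33.2 to 39.0 CPM and 25.7 to 40.6 CPM at 18 h. It fell at 18 h, with log2 changes of -0.72 ± 0.11 in BMDM-WT and -1.06 ± 0.11 in BMDM-Nur77-KO (edgeR adjusted p = 1.1e-06 and 6.4e-10). The unstimulated groups did not overlap, but the difference of 0.17 ± 0.11 did not pass the test (edgeR adjusted p = 0.3), except when the 2 groups were fitted alone (0.20 ± 0.06, edgeR adjusted p = 0.038). Nor did the groups overlap at 1 h (52.2 to 63.1 CPM in BMDM-WT, 63.7 to 76.3 CPM in BMDM-Nur77-KO). That difference too passed only when the 2 groups were fitted alone (0.25 ± 0.07, edgeR adjusted p = 0.03). The 18 h response differed between genotypes by -0.34 ± 0.16 (edgeR adjusted p = 0.19), and by -0.47 with the 18 h knockout replicate 2 left out (edgeR adjusted p = 0.045).

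Ltc4s, which couples leukotriene A4 to glutathione, had 4 to 28 counts per library. Its level was 0.763 to 1.46 CPM in BMDM-WT and 0.729 to 1.27 CPM in BMDM-Nur77-KO at 0 h, and 0.520 to 0.688 CPM and 0.357 to 0.532 CPM at 18 h. It fell at 18 h, with log2 changes of -0.99 ± 0.29 and -1.13 ± 0.32 (edgeR adjusted p = 0.0035 and 0.0024), and no genotype difference passed the test at any time. The means of Ltc4s at 18 h lay below 1 RPKM in both genotypes, so its falls to that time are partly set by the filter. Its fall from 5 to 18 h in BMDM-WT (-0.79 ± 0.32, edgeR adjusted p = 0.047) was lost on leaving out any of 6 of the 8 libraries compared, with edgeR adjusted p between 0.056 and 0.16. This call was also lost with DESeq2's Wald test (adjusted p = 0.06) and without a filter (edgeR adjusted p = 0.061). The antisense gene Gm26542 overlaps Ltc4s.

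Between the genotypes, at 0 h 1 of the 9 genes was higher in BMDM-Nur77-KO and 1 lower (12.7% of all genes tested were called), 1 was lower at 1 h (6.53%), 2 were lower at 5 h (24.4%), and 2 were higher and 1 lower at 18 h (21.7%). The response relative to 0 h differed for 0 of the 9 genes at 1 h (0.0715% of all genes), 1 at 5 h (3.12%) and 3 at 18 h (9.43%). At 1 h, 1 of the 9 (Pla2g4a, -0.28 ± 0.13) had an unadjusted p under 0.05 in edgeR, and DESeq2's Wald test also called 0. All 3 of these contrasts share the libraries at 0 h. These are shares of 9 genes picked by name and are read only beside the percentages given. The count of 2424 genes called at 18 h over the whole table and the 2730 at 5 h set the background, the latter falling to 1494 without replicate 1 of BMDM-Nur77-KO, to 1804 without replicate 2 of BMDM-WT and to 404 when only the 2 groups were fitted. The 1417 genes called at 0 h became 859 or 851 without replicate 1 or 3 of BMDM-Nur77-KO and 929 without replicate 3 of BMDM-WT.

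**Figure D4:**
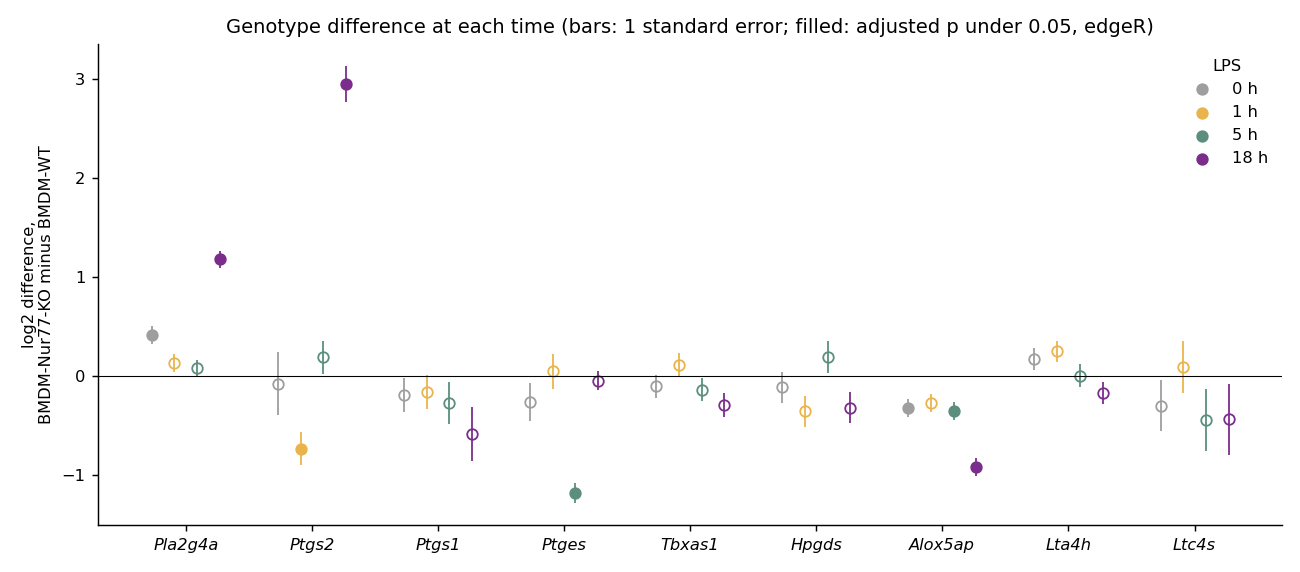
Log2 difference of BMDM-Nur77-KO minus BMDM-WT for the 9 genes tested, with 1 SE as bars, at 0, 1, 5 and 18 h of LPS (colours). Filled points passed an adjusted p under 0.05 (edgeR). Ptgs2 goes from -0.73 at 1 h to 2.95 at 18 h, Ptges is at -1.18 at 5 h and -0.05 at 18 h, and Alox5ap is below 0 at all 4 times.

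Over the 8 group means of log2(CPM + 0.5), the genes whose pattern was most like that of Ptgs2 were Mdm2 (r = 0.994), Lrrc63 and Il1a (both r = 0.993). For Ptges they were Pik3ap1, Anxa6 and Lgals9 (r = 0.998 each), for Ptgs1 Prim2, Rrp12 and Mthfd1 (r = 0.998, 0.998 and 0.997), for Alox5ap Rpn1, Tnfrsf13b and Tars2 (r = 0.989, 0.989 and 0.988) and for Hpgds Tmem144, Tmem150b and Trim37 (r = 0.998, 0.996 and 0.996). Within the pathway, Ptgs1 and Tbxas1 ran together (r = 0.988) and Pla2g4a and Hpgds in opposite directions (r = -0.983). These values describe 8 points that share libraries and a strong LPS effect.

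The genes around this core were described by role. Of 25 genes of arachidonate release and re-esterification, 19 were tested, of which 9 rose and 8 fell with LPS at 5 h in BMDM-WT (70.1% of all genes tested were called), and at 18 h 4 were higher in BMDM-Nur77-KO and 6 lower (21.7% of all genes). Acsl1, which activates fatty acids to CoA esters, reached 1403 ± 133 CPM in BMDM-WT at 18 h and 2165 ± 64.8 CPM in BMDM-Nur77-KO (SD, n = 4), a difference of 0.63 ± 0.07 (edgeR adjusted p = 2.7e-08). Mgll, the lipase that can yield arachidonic acid from 2-arachidonoylglycerol, was at 21.3 ± 1.38 and 47.6 ± 14.3 CPM (1.16 ± 0.17, edgeR adjusted p = 2.9e-06). Pla2g2e, a secreted phospholipase with at most 12 counts per library, was lower at 0.921 ± 0.163 against 0.392 ± 0.139 CPM (-1.22 ± 0.42, edgeR adjusted p = 0.037). With LPS at 5 h in BMDM-WT, Plaat3 rose from 6.48 to 80.6 CPM and Acsl1 from 57.4 to 627 CPM, while Dagla, which makes 2-arachidonoylglycerol, fell from 10.4 to 0.750 CPM. The list's median log2 difference at 18 h between genotypes was -0.01, beside -0.01 over all genes tested.

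Of 12 other prostanoid synthases, carriers and inactivating enzymes, 9 were tested, of which 2 rose and 4 fell at 5 h in BMDM-WT (70.1% of all genes were called) and at 18 h BMDM-Nur77-KO had 2 at a lower level (21.7%), shares close to those of all genes. These were Ptgr1, an oxidoreductase that inactivates prostaglandins and leukotriene B4 (44.2 ± 1.82 against 32.5 ± 3.12 CPM, -0.45 ± 0.09, edgeR adjusted p = 0.00043), and Prxl2b, whose groups overlapped (10.2 ± 2.39 against 6.28 ± 2.13 CPM, edgeR adjusted p = 0.024). Hpgd, the dehydrogenase that inactivates prostaglandin E2, fell from 3.88 to 1.16 CPM at 5 h in BMDM-WT, Cbr1 from 21.5 to 9.70 CPM and Ptgr2 from 49.0 to 23.6 CPM. The median genotype difference of this list at 18 h was -0.09.

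Of 9 prostanoid receptors, 5 were tested. In BMDM-WT at 5 h, 2 rose and 3 fell (70.1% of all genes were called), and at 18 h 4 rose (66.4%). Ptger4, the prostaglandin E2 receptor EP4, went from 17.4 ± 1.71 to 123 ± 4.88 CPM at 5 h (2.81 ± 0.09, edgeR adjusted p = 1.5e-22), Ptgdr2, a prostaglandin D2 receptor, from 1.84 to 9.30 CPM, and Ptger2, the receptor EP2, from 6.52 down to 1.48 CPM. At 18 h 2 receptors were lower in BMDM-Nur77-KO (21.7% of all genes were called), namely the prostaglandin E2 receptors EP2 and EP4. Ptger2 was at 14.4 ± 1.48 against 7.68 ± 1.21 CPM (-0.91 ± 0.18, edgeR adjusted p = 0.00031) and Ptger4 at 35.9 ± 2.63 against 24.8 ± 0.972 CPM (-0.54 ± 0.09, edgeR adjusted p = 1.8e-05), and neither pair of groups overlapped. Before that, Ptger4 had been higher in BMDM-Nur77-KO, by 0.32 ± 0.09 at 0 h and 0.25 ± 0.08 at 5 h (edgeR adjusted p = 0.015 and 0.023).

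Of 18 other lipoxygenases and leukotriene-processing genes, 9 were tested, of which 1 rose and 2 fell at 5 h in BMDM-WT, a smaller share than the 70.1% of all genes, and at 18 h 2 were higher in BMDM-Nur77-KO and 2 lower (21.7%). At 18 h in BMDM-WT 6 fell (66.4% of all genes were called), with a list median of -1.24 beside -0.00 over all genes tested. Abcc1, the exporter of leukotriene C4, rose from 143 to 198 CPM at 5 h, while Cotl1, a partner of 5-lipoxygenase, and Ephx1, an epoxide hydrolase, fell (-0.40 ± 0.15 and -0.29 ± 0.12, edgeR adjusted p = 0.018 and 0.027). At 18 h Dpep2, a dipeptidase that acts on leukotriene D4, was higher in BMDM-Nur77-KO by 0.28 ± 0.07 and Ephx1 by 0.38 ± 0.13, and Cotl1 was lower by -0.44 ± 0.15 (edgeR adjusted p = 0.0053, 0.033 and 0.032).

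Of 9 leukotriene and lipid mediator receptors, 6 were tested, of which 4 rose and 1 fell at 5 h in BMDM-WT (70.1% of all genes were called) and 6 rose at 18 h (66.4%). The formyl peptide receptors Fpr1 and Fpr2, the latter also a lipoxin receptor, went from 0.734 to 16.5 CPM and from 1.11 to 68.3 CPM at 5 h, and Gpr18 from 0.873 to 12.6 CPM. Fpr1, Fpr2 and Gpr18 may thus have entered the test only through LPS groups. Their rise, and the count of 6 receptors that rose, may be partly set by the filter, which was not tested. Only Cysltr2, a receptor for cysteinyl leukotrienes, was called between genotypes at 18 h. It passed the filter of 1 RPKM only through BMDM-WT at 5 and 18 h (2.32 and 4.64 RPKM). Its mean was 0.642 RPKM or less in every other group and 0.104 RPKM or less in BMDM-Nur77-KO. Its rise and its genotype difference are thus partly set by the filter, and its p-values only describe them. Cysltr2 had 69, 102, 123 and 70 counts in BMDM-WT (6.29, 9.69, 10.7 and 6.02 CPM) and 1, 2, 2 and 4 counts in BMDM-Nur77-KO (edgeR adjusted p = 4.3e-13). At 5 h it had 48, 32, 26 and 35 counts in BMDM-WT and 1, 0, 0 and 0 in BMDM-Nur77-KO, and at 0 h 8, 16, 10 and 6 against 1, 2, 2 and 2 (edgeR adjusted p = 1.3e-10 and 0.0034). At each of the 4 times all knockout libraries had fewer counts than all wild-type libraries, and no fold is given because the knockout counts are at or close to the floor of 3 counts.

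**Figure D5:**
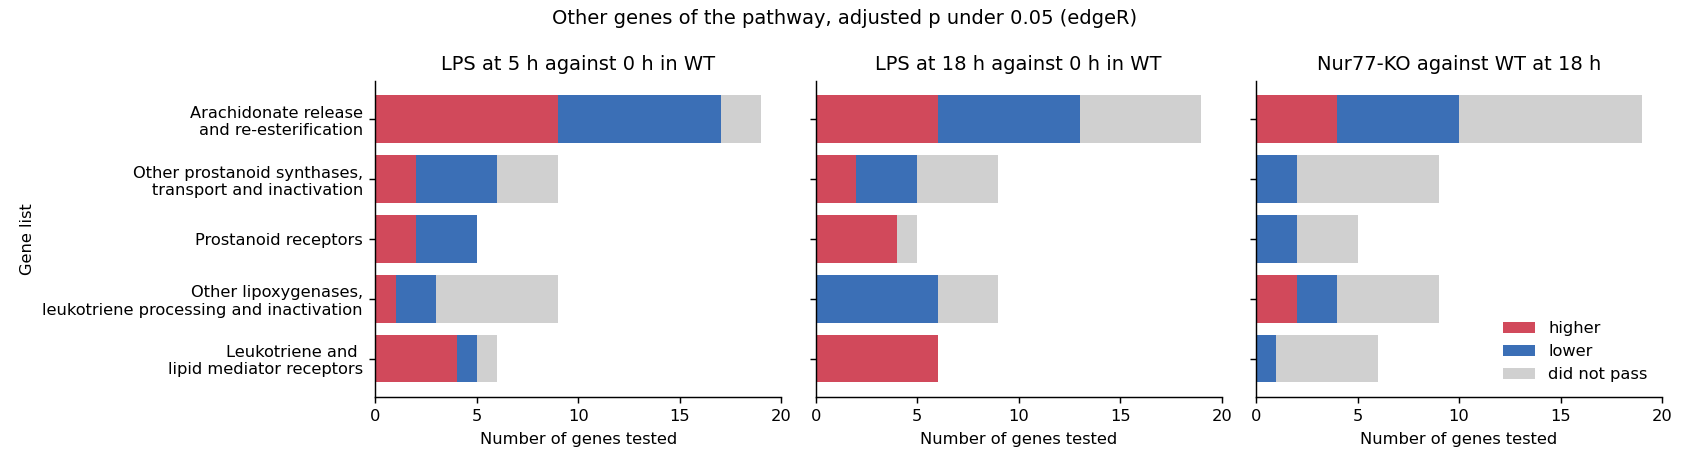
Number of genes tested in each of the 5 lists of other pathway genes that were higher (red), lower (blue) or did not pass an adjusted p under 0.05 (grey, edgeR), for LPS at 5 h and at 18 h in BMDM-WT and for BMDM-Nur77-KO against BMDM-WT at 18 h. All 6 leukotriene and lipid mediator receptors tested rose at 18 h in BMDM-WT (66.4% of all genes were called), and 2 prostanoid receptors were lower in BMDM-Nur77-KO at 18 h (21.7%). Cysltr2, 1 of the 6, entered the test only through BMDM-WT at 5 and 18 h, so its rise is partly set by the filter. Fpr1, Fpr2 and Gpr18 were also low at 0 h, and the part of the filter in their rise was not tested.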

How the data were processed

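RNA-seq reads were processed by the authors with CASAVA 1.8.2, HISAT2 2.1.0 (mm10) and SAMtools, and HOMER tag counts were deposited without normalisation, in estimated counts per RefSeq transcript (42361 transcripts; 28.6% of values not whole, in steps of 0.5). Here they were rounded to whole counts. Rows without a gene name held 0.233% to 1.37% of a library and were left out. The transcript with the highest mean count stood for its gene. Genes whose group mean exceeded 1 RPKM in any group entered the test, run in R 4.3.3 with edgeR 4.0.16 (quasi-likelihood, TMM, 1 model of 8 group means, Benjamini-Hochberg), and SE was the log2 difference divided by the square root of F. A gene below 1 RPKM in 1 of the groups compared entered only through other groups, so its change may be partly set by the filter. DESeq2 1.42.0 was an alternative, as were other filters, other groups in the fit and leaving out each library. Groups came from the sample titles. Library totals of 8742362 to 15780926 limit precision for genes with few counts.

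The members and the lists were chosen with earlier results of these data known. Named among the other pathway genes were, per list, the up to 3 called genes with the largest absolute log2 difference in each of 2 comparisons (LPS at 5 h in BMDM-WT, genotype at 18 h), and the 3 genes most correlated with each of 5 members. Neighbouring genes were named after their values were seen.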

Additional observations from a re-analysis of the deposited data

Results flagged for a closer look

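In 7 of 76 groups of 4 libraries tested with Dixon's criterion, 1 library lay apart from the other 3, where chance flags about 1 in 20 groups. These included Ptges in replicate 4 of BMDM-WT at 18 h (111 CPM). They also included Ptges (81.6 CPM) and Tbxas1 (47.6 CPM) in replicate 4 of BMDM-Nur77-KO at 18 h, a different library. The knockout library had the second lowest correlation with its group (0.982), while the wild-type one was at 0.995. The others were Alox5ap in replicate 3 of BMDM-WT at 1 h (141 CPM), Pla2g4a in replicate 4 of BMDM-WT at 5 h (180 CPM), Pla2g4a in replicate 3 of BMDM-Nur77-KO at 1 h (38.1 CPM) and Alox5 in replicate 3 of BMDM-Nur77-KO at 0 h (0.614 CPM, 8 counts).

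The response to LPS differed between genotypes by a test of the difference itself (edgeR) for Ptges at 5 h (-0.92) and for Ptgs2 (3.03), Pla2g4a (0.77) and Alox5ap (-0.59) at 18 h. The change from 5 to 18 h differed for Ptgs2 (2.76), Ptges (1.13), Pla2g4a (1.10) and Alox5ap (-0.57), in a contrast chosen after the values were seen. These contrasts share libraries and are not independent of one another.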

How the results depend on the processing

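Of 2432 values recomputed under the alternatives, 2395 kept their side of the threshold, 18 were no longer called, 19 became called and 0 called values reversed. Direction was compared only for values called in either fit. Values called in neither could change sign, as did Ptgs2 between genotypes at 0 h (-0.30 to 0.18 on leaving out 1 library at a time). With a log2 limit of 1, the number of the 9 genes called was 1, 5 and 5 for LPS at 1, 5 and 18 h in BMDM-WT, 5 at 5 h in BMDM-Nur77-KO, and 2 and 3 between 5 and 18 h in BMDM-WT and BMDM-Nur77-KO. With a limit of 0.58 it was 0 between genotypes at 0 h and 1 at 5 h. Between genotypes at 1 h the number was 2 with DESeq2's Wald test, which called 916 of the 11186 genes tested. With only the groups compared it was 4 at 1 h (Ptgs2, Alox5ap, Lta4h and Hpgds) and 1 at 5 h. The cause was not tested. Where the share of all genes under the same setting is not given, counts of the 9 genes in this section are not read against it.

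Without 1 library at a time, the number called was 1 to 2 between genotypes at 0 h, 3 to 4 at 18 h, 6 to 8 and 5 to 8 between 5 and 18 h in BMDM-WT and BMDM-Nur77-KO, 3 to 4 for the 18 h response difference and 4 to 5 for the difference in the change from 5 to 18 h, and it did not vary in the other comparisons. Over all genes, DESeq2's size factors moved the share of higher calls for LPS at 1 h in BMDM-WT from 49.9% to 60.01%. Genotype calls with only the groups compared went from 1417 to 2413 at 0 h, 731 to 1723 at 1 h and 2424 to 1609 at 18 h, and calls of a different 1 h response from 8 to 219 (25 with DESeq2's Wald test).

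Replicate numbers did not pair the libraries: the median correlation of deviations was -0.02 over 112 same-numbered pairs, and 2 of 32 libraries correlated best with their own number. With the replicate block, the number of the 9 genes called was 2, 8 and 9 for LPS in BMDM-WT, 1, 8 and 9 in BMDM-Nur77-KO, and 2, 1, 2 and 3 between genotypes at 0, 1, 5 and 18 h, the same counts as without it. Depth limits what can be said of Alox5 and Ltc4s.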
